A study of Mus musculus with 4 samples.

Results

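Cathepsins and cystatins were examined in bone-marrow Lin-Kit+ cells, progenitors sorted for the Kit receptor and against lineage markers of mature blood cells. The 10 genes were chosen by name, with earlier results of these data known. Members were the lysosomal proteases Ctsb, Ctsc, Ctsd, Ctsh, Ctsk, Ctsl, Ctss and Ctsz and the inhibitors Cst3 and Cstb. They gave 10 of the 17956 single loci of the table, all 10 passed the filter on low values, and 13764 loci were tested in all. Both groups were C57BL/6 mice, 2 libraries from wild-type (WT) and 2 from Asxl1-/- (KO) animals, each from 2000000 cells. No source used here gives the age of the mice or the design of the Asxl1 allele.

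Cathepsins are proteases of the lysosome, the acidic compartment in which cells break down proteins. Most are cysteine proteases of the papain family, whereas cathepsin D is an aspartic protease. Cystatins are small proteins that block cysteine cathepsins: cystatin C, from Cst3, is secreted, and stefin B, from Cstb, and the stefin A proteins act inside the cell. In blood cells cathepsins trim the invariant chain of MHC class II, activate serine proteases of granules and take part in the turnover of bone and matrix.

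Asxl1, a chromatin regulator, had a normalised read count (defined as reads times 1 scaling factor per library) of 9742 and 9472 in the WT libraries, against 146 and 135 in the KO libraries (log2 fold change -6.09 ± 0.09, adjusted p = 8.89e-06, limma), so the genotype labels matched its transcript in each library. The libraries held 46597871 to 83586916 reads, and replicate 1 of each genotype carried high Xist while replicate 2 carried Y-linked transcripts. Differences within each replicate pair are therefore given beside the pooled ones. Kit itself was 16149 to 17739 in WT and 18483 to 18889 in KO (merged locus AK047175+Kit, adjusted p = 0.131). Of the 10 progenitor markers, Kit included, 1 rose and 3 fell (median -0.22), with sums of 633118 and 582058 in WT and 542761 and 469471 in KO, and their part in the differences of the members was not tested. The labels name no animals, but the opposite Xist and Y-linked levels within each genotype show that its 2 libraries were not made from the same mouse, and p-values measure the spread between these libraries.

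The upstream sequences of 4 members are shown because they belong to the 2 neighbouring genes that fell together (Ctsk and Ctss), to another member that fell (Ctsc) and to a member whose level differed little (Ctsd). Each is the 250 bases before the gene's start, 5′ to 3′ on the gene's strand, from RefSeq on GRCm38.p6, which is a later build than the mm9 of the expression table. RefSeq windows were found for 7 of the 10 members, and Ctsb, Ctsh and Cstb had no entry. Capitals mark matches, on either strand, to CACGTG (an E-box, the core recognised by the lysosomal regulators TFEB and TFE3), to its extension TCACGTG, which contains the first, to GAGGAA (a core of sites for the myeloid factor PU.1) and to the run GAAA repeated after any 2 bases (a form of the interferon response element).
Ctsk, chr3:95498960-95499209, plus strand: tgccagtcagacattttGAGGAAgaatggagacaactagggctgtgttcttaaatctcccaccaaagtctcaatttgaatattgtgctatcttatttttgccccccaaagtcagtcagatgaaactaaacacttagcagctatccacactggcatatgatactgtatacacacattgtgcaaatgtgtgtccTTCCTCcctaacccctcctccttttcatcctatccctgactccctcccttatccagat
Ctss, chr3:95526536-95526785, plus strand: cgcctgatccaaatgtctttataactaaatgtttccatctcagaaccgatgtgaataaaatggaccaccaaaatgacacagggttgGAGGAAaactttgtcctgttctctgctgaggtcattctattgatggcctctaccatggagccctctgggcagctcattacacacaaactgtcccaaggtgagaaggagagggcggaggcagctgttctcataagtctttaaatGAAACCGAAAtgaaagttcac
Ctsc, chr7:88277835-88278084, plus strand: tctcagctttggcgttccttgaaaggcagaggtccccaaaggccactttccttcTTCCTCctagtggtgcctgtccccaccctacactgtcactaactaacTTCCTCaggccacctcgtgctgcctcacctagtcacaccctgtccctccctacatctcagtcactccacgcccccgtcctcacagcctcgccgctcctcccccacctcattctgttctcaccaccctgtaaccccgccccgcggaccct
Ctsd, chr7:142387828-142388077, minus strand: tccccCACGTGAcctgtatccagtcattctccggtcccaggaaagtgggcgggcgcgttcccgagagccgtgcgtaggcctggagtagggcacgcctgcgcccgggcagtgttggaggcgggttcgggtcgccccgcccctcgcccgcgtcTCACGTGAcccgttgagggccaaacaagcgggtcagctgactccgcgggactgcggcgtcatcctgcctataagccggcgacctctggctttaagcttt

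Of 32536 RefSeq windows of this length, 6.04% held CACGTG, 3.16% TCACGTG, 23.4% GAGGAA and 2.98% the GAAA repeat. The Ctsd window held 2 E-boxes, which begin at positions -245 and -98 from the gene's start, and both were extended matches. Ctss alone among the 7 members had the interferon-type match, GAAACCGAAA, beginning at position -21. Each of Ctsk and Ctsc had 2 matches to GAGGAA, and Ctss and Cst3 had 1. The Ctsl window held 1 E-box, at -236, and the Ctsz window held none of the letters searched. GC content was 43.2% in the Ctsk window and 44.8% in that of Ctss, against 67.2% for Ctsd and a median of 52.4% over all windows. These matches describe letters in a window and say nothing of binding.

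Loss of Asxl1 went with lower Ctsk, Cstb, Ctsc and Ctss transcripts, a lower merged locus Ctsz+Th1l and higher Ctsh, while Ctsd, Cst3 and the merged locus Ctsb+Fdft1 differed by less than 5% and did not pass the test. Ctsl was higher in both KO libraries without passing. Of the 10 loci 6 passed a Benjamini-Hochberg adjusted p of 0.05 with limma, 1 higher and 5 lower, where 20.9% of all tested loci passed (11.9% higher and 8.97% lower). The counts given for lists and markers stand beside these same shares. As members and lists were chosen with earlier results of these data known, their counts are no independent evidence. The median log2 fold change of the 10 loci was -0.12, and it was -0.01 over all tested loci. The 2 KO values lay on one side of both WT values for 9 of the 10 loci, a pattern that 66.1% of all tested loci also showed. DESeq2 called 7 of the 10, and 25% of all loci. Without WT replicate 1, and without WT replicate 2, Ctsh alone was called, beside 6.31% and 7.85% of all loci. Without KO replicate 1, 5 members were called, and without KO replicate 2, 6, beside 23.5% and 23.1% of all loci. Of all calls 57.0% were higher in KO, a share that was 42.6% with upper-quartile and 39.2% with CPM scaling. Because these are bulk samples, fewer cells of a type and less RNA per cell cannot be told apart.

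**Figure D1:**
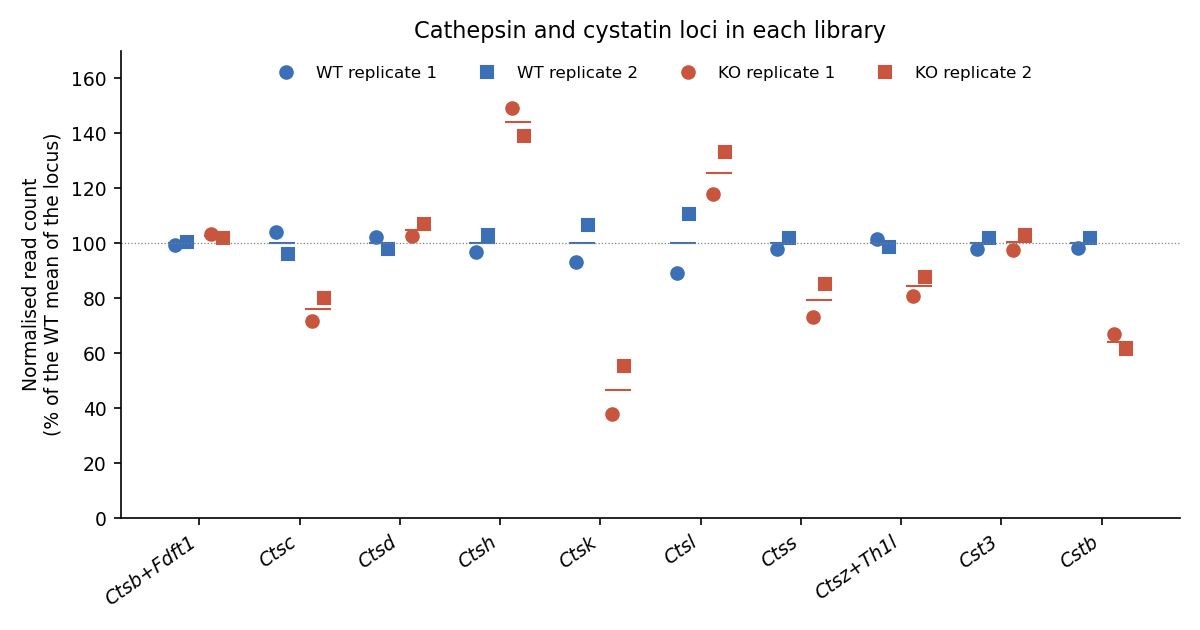
Normalised read count of each locus in the 4 libraries, as a percentage of the WT mean of that locus; circles are replicate 1, squares replicate 2, and short lines the group means. Ctsh sits above the WT points in both KO libraries, Ctsk, Cstb, Ctsc, Ctss and Ctsz+Th1l sit below them, and Cst3 overlaps.

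Levels can be set beside each other only per length, here per kilobase of the principal transcript in GENCODE M21, since the annotation behind the counts is not given. Ctsd was the most abundant of the 8 unmerged members, at 8969 ± 266 per kilobase in WT (SD, n = 2), followed by Cst3 at 7678 ± 212. Ctsh (2490 ± 108) and Cstb (2330 ± 60.2) were close to each other in WT, whereas in KO Ctsh stood at 3585 ± 178 and Cstb at 1496 ± 93.6. Ctss was 2008 ± 57.0 per kilobase in WT. Ctsk was the least abundant, at 307 ± 29.3 in WT and 143 ± 38.2 in KO. The place of Ctsc depends on the transcript used (2318 per kilobase, or 1085 over the union of its exons), and the principal Ctsl transcript of 6.17 kilobases makes its value of 355 uncertain as well.

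Ctsk encodes cathepsin K, a collagen-cutting protease best known from osteoclasts, the cells that resorb bone. WT libraries gave normalised read counts of 433 and 495, and KO libraries 176 and 257. Both KO values lay well under both WT values, and this was the largest difference among the members. The log2 fold change was -1.12 ± 0.22 (SE; adjusted p = 0.0200, limma), so KO stood at 0.461 of WT, with -1.29 between the libraries numbered 1 and -0.94 between those numbered 2. These values rest on 334 and 406 reads in WT and 232 and 312 in KO. Without WT replicate 1 the adjusted p was 0.0690 and without WT replicate 2 it was 0.0980, fits in which the spread comes from the KO pair alone.

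Osteoclast, stroma and macrophage markers were read beside Ctsk, since those cells also make it. Among all tested loci 11.9% were called higher and 8.97% lower. Of 8 tested osteoclast markers 2 rose and 1 fell, with a median log2 fold change of 0.05. Those that rose were Mmp9 and Itgb3, of which Mmp9 is also a neutrophil gene. The 11 listed loci summed to 53168 and 64447 in WT and to 69670 and 92047 in KO. The marker that fell was Atp6v0d2, a proton pump subunit of osteoclasts, from 60.9 and 56.1 to 28.0 and 19.8 (adjusted p = 0.0475). That call was lost with DESeq2 (adjusted p = 0.0924), with no filter (0.0707), with limma-voom (0.0519), and without WT replicate 1 (0.205), WT replicate 2 (0.160) or KO replicate 2 (0.106). Calcr, the calcitonin receptor that defines osteoclasts, was listed at 6.48 and 0 in WT and at 0 and 0.825 in KO, where a count of 0 allows up to 2.27 to 3.89. Of 15 listed stroma and endothelium markers 12 passed the filter and were tested, of which 0 rose and 3 fell (median -0.08). The 15 summed to 8778 and 8847 in WT and to 7884 and 8497 in KO. The fibroblast genes Dcn and Lum, picked outside the naming rule, did not pass the filter and were between 0 and 7.43 in every library. Of 14 tested macrophage markers 3 rose and 5 fell, with a median log2 fold change of -0.48. The list summed to 18703 in both WT libraries and to 26420 and 22077 in KO, so sum and median went opposite ways. The part of these cells in the Ctsk difference was not tested.

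Ctss, which lies 17.4 kb from Ctsk on chromosome 3 (mm9, 95330707 to 95360325, against 95303207 to 95313284 for Ctsk), encodes cathepsin S, the protease that makes the last cuts in the invariant chain in antigen-presenting cells. Values of 2667 and 2776 in WT stood against 1996 and 2321 in KO. The groups did not overlap, and KO replicate 1 was the lowest library. The log2 fold change was -0.34 ± 0.09 (adjusted p = 0.0471, limma), with -0.42 and -0.26 in the replicate pairs. This call was near the threshold and was lost without WT replicate 1 (adjusted p = 0.157), without WT replicate 2 (0.200), without KO replicate 1 (0.0718), with no filter (0.0563) and with limma-voom (0.0524).

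No other tested locus around the pair was called lower. Within 250 kb of Ctsk, 13 further loci were tested, of which 1 was lower, Ctss itself, and 1 was higher, Mcl1, an inhibitor of apoptosis (log2 0.47 ± 0.07, adjusted p = 0.00952). Arnt, in a merged locus 2.05 kb from Ctsk, had a log2 fold change of 0.09 ± 0.05 (adjusted p = 0.285). The meiotic gene Hormad1, 3.27 kb from Ctss, had 0 and 3.66 in WT against 12.1 and 31.4 in KO (adjusted p = 0.0579), at or under the limit that a count of 0 allows in WT. For Mcl1 the adjusted p was 0.0560 without WT replicate 1, and for Hormad1 it was 0.0369 without WT replicate 2 and 0.168 without WT replicate 1. These neighbours were chosen after their values were seen.

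**Figure D2:**
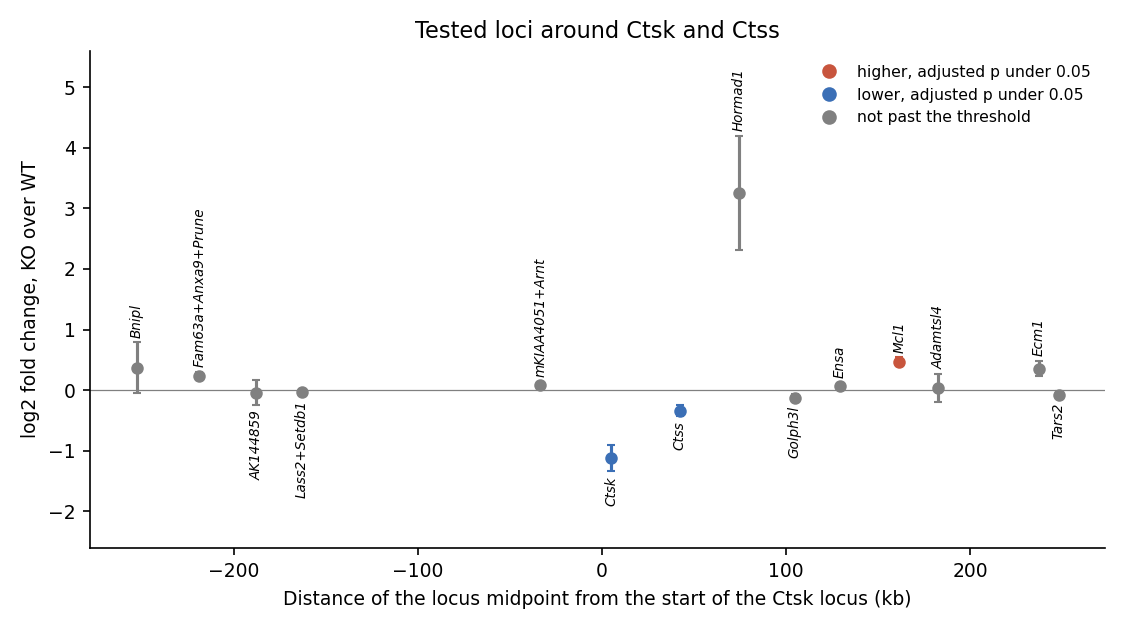
Log2 fold change of KO over WT with its SE for the tested loci within 250 kb of Ctsk, against the distance of each locus midpoint from the start of Ctsk. Ctsk and Ctss are the 2 loci past the threshold downward, Mcl1 is past it upward, and Hormad1, with few reads, has the widest error.

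Ctsc (mm9, chr7:95426602-95459385) encodes cathepsin C, also called dipeptidyl peptidase I. This enzyme removes a dipeptide from serine proteases of neutrophil, mast cell and lymphocyte granules and so activates them. Ctsc had 6013 and 5542 in WT, and 4152 and 4628 in KO. All KO values were below all WT values. KO differed from WT by a log2 fold change of -0.40 ± 0.08 (adjusted p = 0.0190, limma), with -0.53 and -0.26 in the pairs, and the adjusted p was 0.114 without WT replicate 1 and 0.0506 without WT replicate 2.

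Of the 11 tested granule proteases listed as clients of cathepsin C, 0 rose and 2 fell, where 20.9% of all tested loci were called. Their median log2 fold change was -0.15, against -0.01 over all loci. Whether cathepsin C activates each listed protease was not tested. Prss34 fell by 1.26 ± 0.07 and Mcpt8 by 0.55 ± 0.11 (adjusted p = 0.00117 and 0.0228, limma). The Mcpt8 call was lost without WT replicate 1 (log2 fold change -0.59) and without WT replicate 2 (-0.50), whereas Prss34 kept its call in each alternative. Both are basophil proteases, and 5 of 9 basophil and mast cell markers, these 2 included, fell and 0 rose, with sums of 20292 and 20137 in WT and 19661 and 17612 in KO. The part of that cell type was not tested. The neutrophil protease genes did not pass: Elane had 99983 and 97100 in WT against 97972 and 78487 in KO (adjusted p = 0.281), Ctsg had a log2 fold change of -0.15 (adjusted p = 0.0582) and Prtn3 of -0.17 (adjusted p = 0.0885). Elane, Ctsg and Prtn3 were chosen outside the naming rule, as the classical clients of cathepsin C. The list had 4 called members with DESeq2 and with CPM or upper-quartile scaling, 1 without WT replicate 2 and 6 without KO replicate 1.

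Cathepsin Z, a carboxypeptidase, is read from the merged locus Ctsz+Th1l (chr2:174241304-174264493). Its reads there cannot be divided from those of Th1l, a subunit of a negative transcription elongation factor. This locus had 11822 and 11480 in WT, against 9421 and 10227 in KO. Its groups did not overlap. Its log2 fold change, -0.25 ± 0.06 (adjusted p = 0.0316, limma), was the smallest among the called members, with -0.33 and -0.17 in the pairs, and the adjusted p was 0.181 without WT replicate 1 and 0.119 without WT replicate 2. Like Asxl1 it lies on chromosome 2, 21.0 Mb away.

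Ctsh was the 1 member that rose. It lies at chr9:89949104-89970933 and encodes cathepsin H, an aminopeptidase of the papain family. Against 3902 and 4149 in WT, the KO libraries had 6001 and 5594. Both KO libraries stood clear of both WT libraries. Ctsh rose by 0.53 ± 0.06 on the log2 scale, 1.44-fold (adjusted p = 0.00529, limma), with 0.62 and 0.43 in the pairs. Ctsh alone among the members was called in each of the 14 alternative analyses, which include leaving out each library in turn (adjusted p at most 0.0388, without WT replicate 1).

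Mature neutrophil markers rose beside Ctsh: 14 of 15 tested markers were called higher and 0 lower, with sums of 1089574 and 1211882 in WT and 2191319 and 2050507 in KO. Their part in the Ctsh difference was not tested. Of the other 2935 named, unmerged loci of like level, those whose 4 log2 values, centred on their mean, lay nearest to Ctsh were Tmc8, Cd52 and Spty2d1, with root mean square differences of 0.0154, 0.0233 and 0.0264 over the 4 libraries. As 166 loci lay within 0.1, this pattern is common. For Ctsk the nearest of 1247 such loci were Slc26a11 (0.0664), Tie1 (0.0882) and Rnf122 (0.103), and 2 lay within 0.1.

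Ctsl (chr13:64464521-64471614) encodes cathepsin L, an endopeptidase that degrades proteins in the lysosome. WT libraries had 1954 and 2425, and KO libraries 2585 and 2915. Although the groups did not overlap, the WT libraries differed from each other by more than WT replicate 2 did from KO replicate 1. The log2 fold change was 0.33 ± 0.12 (adjusted p = 0.0984, limma), and the pairs gave 0.40 and 0.27. DESeq2 called it (adjusted p = 0.0466). The log2 fold change of Ctsl was 0.18 without WT replicate 1 and 0.49 without WT replicate 2, and neither fit called it.

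Ctsd and the merged locus of Ctsb did not pass the test. For Ctsd (chr7:149561820-149573775), the gene of the aspartic protease cathepsin D, WT had 19476 and 18676, and KO 19564 and 20426 (log2 0.07 ± 0.05, adjusted p = 0.355). KO replicate 1 exceeded WT replicate 1 by less than the WT libraries differed from each other. Cathepsin B, a protease that cuts both within chains and from their ends, is read from Ctsb+Fdft1 (chr14:63741301-63798415), merged with a gene of cholesterol synthesis, at 20157 and 20404 in WT and 20967 and 20651 in KO (log2 0.04 ± 0.04, adjusted p = 0.562). Its small difference turns negative with CPM or upper-quartile scaling.

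**Figure D3:**
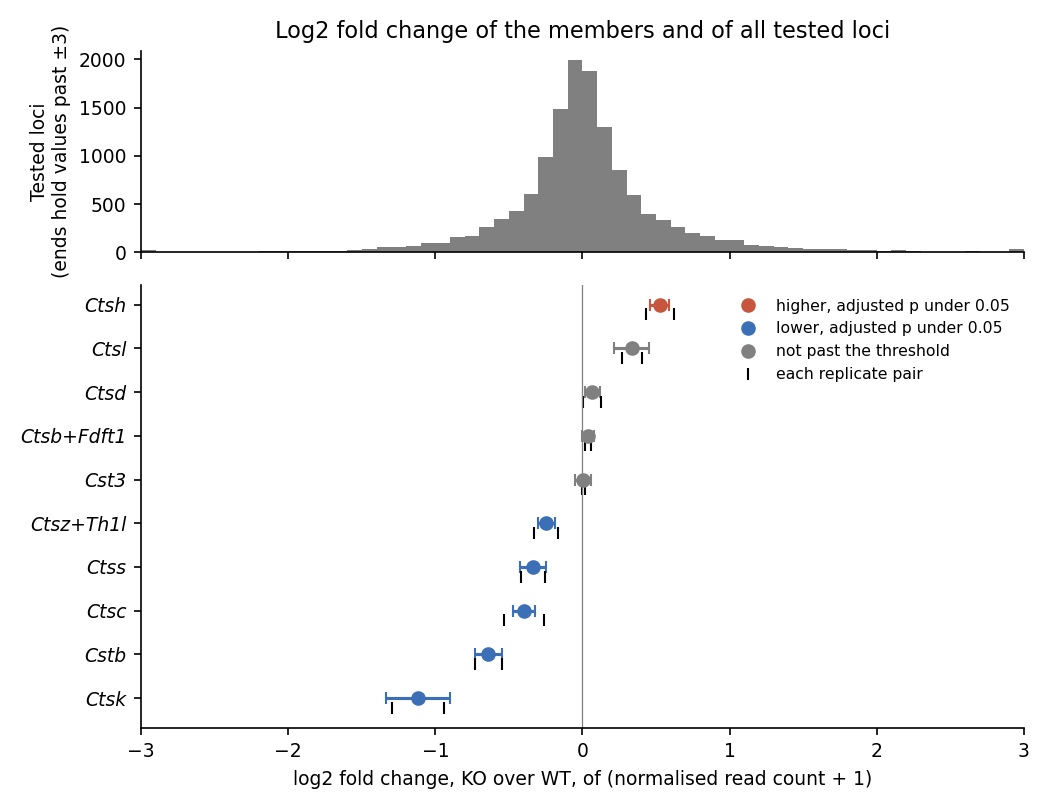
Upper panel, number of tested loci by log2 fold change of KO over WT, with values past 3 in either direction placed in the end bins; lower panel, the fold change of each member with its SE, and black ticks for the replicate pairs. Ctsk (-1.12) and Ctsh (0.53) are the extremes, and most members lie inside the bulk of all loci.

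Summed over the 5 unmerged cysteine cathepsins (Ctsc, Ctsh, Ctsk, Ctsl and Ctss), the WT libraries had 14969 and 15387 and the KO libraries 14909 and 15716. In the deposited scaling the means, 15178 ± 295 and 15313 ± 571 (SD, n = 2), differed by less than the spread between libraries. The sum was not taken with CPM or upper-quartile scaling, which lower KO against WT over all loci. The make-up of the sum differed, and shares within a library do not depend on its scaling factor. Ctsh took 26.5% ± 0.634 of it in WT and 37.9% ± 3.29 in KO, and Ctsc took 38.1% ± 2.94 and 28.6% ± 1.13. These are shares of reads and depend on transcript length, and with 2 libraries against 2 an exact permutation test cannot reach the threshold.

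**Figure D4:**
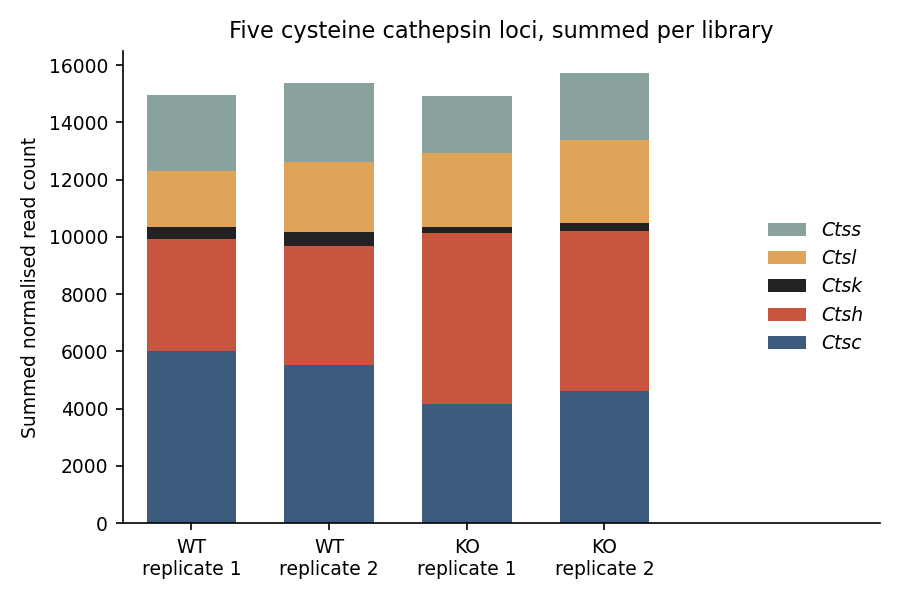
Summed normalised read count of 5 cysteine cathepsin loci in each library, with each colour the part from 1 locus. The 4 totals lie between 14909 and 15716, while the Ctsh part is larger and the Ctsc and Ctsk parts are smaller in both KO libraries.

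The inhibitors went different ways. Cstb (chr10:77888414-77890367) encodes stefin B, an inhibitor in the cytosol and nucleus of most cells. WT gave 1379 and 1431, and KO 942 and 862. Both KO libraries lay below both WT libraries. Cstb had a log2 fold change of -0.64 ± 0.09, 0.642 of WT (adjusted p = 0.00808, limma), with -0.55 and -0.73 in the pairs, and the adjusted p was 0.0520 without WT replicate 1 and 0.0585 without WT replicate 2.

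Cst3 (chr2:148697467-148701204) encodes cystatin C, the main secreted inhibitor. WT had 6474 and 6732, and KO 6446 and 6802, so the genotypes overlapped (log2 0.0043 ± 0.055, adjusted p = 0.965), and its sign turns with scaling and with the library left out. The locus lies 4.47 Mb from Asxl1. Cst7, which encodes cystatin F, an inhibitor inside granules and lysosomes that acts on cathepsin C, was the 1 tested locus of the 6 other cystatins in the table. It fell by 0.26 ± 0.05 (adjusted p = 0.0229), from 4897 and 4839 to 4115 and 4014, and lost its call when either WT library was left out.

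Stefin A loci stood apart from both. Of the 8 tested loci 7 rose and 0 fell, with a median of 4.49, and the 10 listed loci summed to 3853 and 3439 in WT and 42194 and 132615 in KO. The list was chosen with its rise already known, so its count is no independent evidence. Gm5483 (5.23 ± 0.56), BC117090 (5.11 ± 0.47), Stfa2 (5.03 ± 0.53) and Stfa2l1 (4.59 ± 0.49) had the largest log2 fold changes. The copies are near-identical, so the division of reads among them is uncertain, and limma-voom called 2 of the 8. Stfa1, with 474 and 371 in WT against 102 and 327 in KO, did not pass (adjusted p = 0.148).

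**Figure D5:**
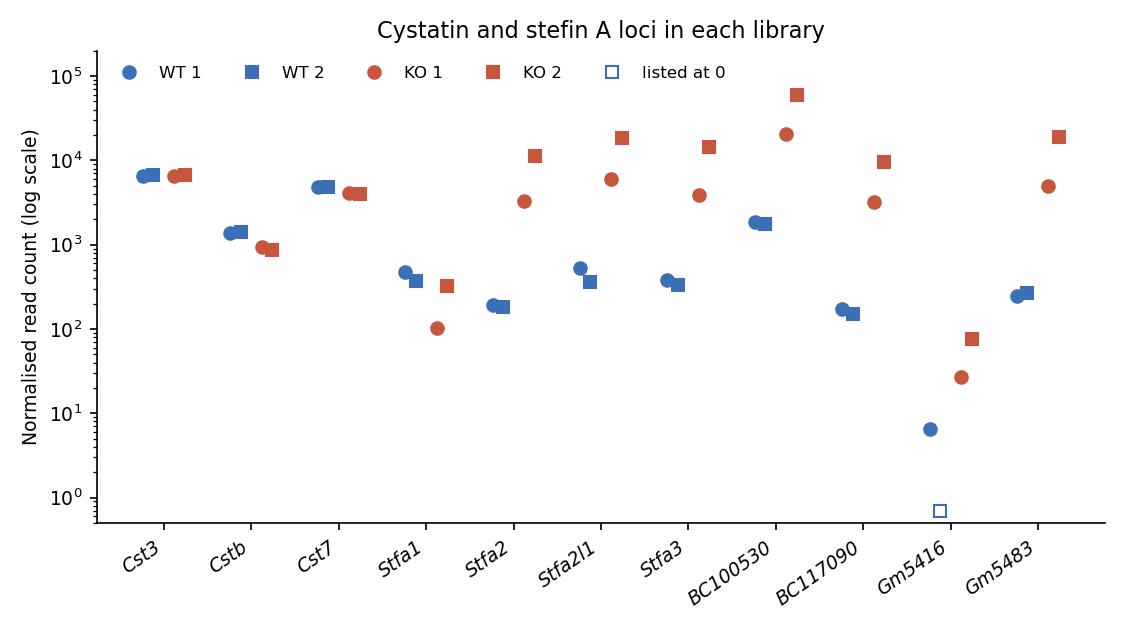
Normalised read count, on a log axis, of the tested cystatin and stefin A loci in each library; an open square marks a library listed at 0. Cstb and Cst7 are lower in both KO libraries, Cst3 overlaps, and 7 of 8 stefin A loci are higher, most in KO replicate 2.

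Serpins form another class of inhibitors of cathepsins and granule proteases, and Slpi, which is not a serpin, was listed with them. Of 11 tested loci of this list, called serpins below, 6 rose and 2 fell (median 0.54). Among all tested loci 11.9% were called higher and 8.97% lower. Serpinb2, an inhibitor of plasminogen activators, rose by 1.94 ± 0.27, Serpinb10, listed as Serpinb10-ps, by 0.98 ± 0.08, and Serpine2, a secreted inhibitor of thrombin-like proteases, by 0.77 ± 0.12. The merged locus Serpina3f+Serpina3g fell by 0.99 ± 0.12, and Serpina3g encodes a cathepsin inhibitor that interferon induces. Leaving out WT replicate 1 left 5 called loci.

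Of 11 tested loci of other lysosomal peptidases 1 rose and 1 fell (median -0.12), a share near the 20.9% of all loci called. Ctsf, the gene of cathepsin F, had the lowest log2 fold change of the list, -1.13 ± 0.49, without passing (adjusted p = 0.148), with 54.4 and 48.8 in WT and 14.4 and 36.3 in KO, and was named after its values were seen. Ctse, the second aspartic cathepsin, rose by 0.43 ± 0.06, from 26440 and 23777 to 33903 and 33489 (adjusted p = 0.00791), and erythroid markers rose beside it, 5 of 9 tested higher and 0 lower, with sums of 80557 and 87208 in WT and 137983 and 154085 in KO. The part of erythroid cells was not tested. Lgmn, which encodes legumain, a protease that processes cathepsins, fell by 0.55 ± 0.11, from 983 and 911 to 680 and 618 (adjusted p = 0.0210, limma). Its call was lost when either WT library was left out. Without WT replicate 1, and without WT replicate 2, 1 of these loci was called.

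Among receptors and enzymes that send proteases to the lysosome, 5 of 17 tested loci rose and 1 fell (median 0.06), where 20.9% of all loci were called. Igf2r, the large mannose 6-phosphate receptor that carries newly made cathepsins, rose by 0.71 ± 0.07, from 4418 and 4472 to 7684 and 6869 (adjusted p = 0.00264). The sorting receptors Sorl1 and Sort1 rose by 0.64 ± 0.07 and 0.30 ± 0.05, and Sort1 lost its call when either WT library was left out. Nagpa, which completes the mannose 6-phosphate tag, fell by 0.27 ± 0.07. That call was lost without WT replicate 1, WT replicate 2 or KO replicate 2, and with no filter. Without WT replicate 1, and without WT replicate 2, 2 loci of this list were called.

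Other lysosomal hydrolases split in both directions, with 7 of 37 higher and 5 lower (median -0.11). Over all tested loci 11.9% were higher and 8.97% lower. Gla, which encodes alpha-galactosidase, rose by 0.69 ± 0.07 and the merged locus with Sgsh by 0.65 ± 0.11. Ppt1, a thioesterase gene, fell by 0.55 ± 0.15 and Gm2a, the gene of a lipid-binding activator, by 0.46 ± 0.08. The call of Gm2a was lost without WT replicate 1, and that of the Sgsh locus without WT replicate 2. The Ppt1 change was -0.79 without KO replicate 1 and -0.31 without KO replicate 2, and its call (adjusted p = 0.0482) was lost with edgeR, with limma-voom, with no filter and without either WT library. In the list of lysosomal membrane proteins and proton pump subunits 4 of 33 rose and 2 fell (median 0.09), where 20.9% of all tested loci were called. Slc11a1, a metal transporter of phagosomes, was higher by 0.98 ± 0.20, Atp6v0a1 by 0.35 ± 0.09 and Cd63 by 0.33 ± 0.07. Atp6v0d2 was lower as given above. Atp6v0a1 lost its call with limma-voom, with upper-quartile or CPM scaling, and without WT replicate 1 or WT replicate 2. Slc11a1 lost its call without WT replicate 1, and Cd63 without WT replicate 2. In the fit without WT replicate 1 the 2 lists had 5 and 1 called loci, and without WT replicate 2 they had 3 and 1.

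Genes that control lysosome formation and autophagy included 5 that rose and 1 that fell of 16 tested (median 0.13), beside 20.9% of all loci called. The locus Tcfeb+AK203938, which holds the gene of TFEB, rose by 0.44 ± 0.09 (adjusted p = 0.0234), Fnip1 by 0.67 ± 0.07 and Map1lc3a by 0.65 ± 0.16, whereas Tcfec+Tfec fell by 0.29 ± 0.07. The calls of Tcfeb+AK203938, Map1lc3a and Tcfec+Tfec were lost without WT replicate 1 and without WT replicate 2. That of Map1lc3a was also lost without KO replicate 1 and with limma-voom, and that of Tcfec+Tfec without KO replicate 2 and with no filter. Each of the fits without WT replicate 1 and without WT replicate 2 called 1. The class II list included Cd74, the gene of the invariant chain that cathepsin S cuts. Of its 9 tested loci 0 rose and 1 fell (median 0.04), where 20.9% of all tested loci were called. Cd74 itself was not called. H2-DMa fell by 0.45 ± 0.12 (adjusted p = 0.0479, limma). That call was lost with edgeR, with limma-voom, with no filter, and without WT replicate 1, WT replicate 2 or KO replicate 1, where the change was -0.28. The list had 4 called genes without KO replicate 1 and 2 without KO replicate 2. Lineage markers were read beside these genes, and the B and T list also holds genes of T cells. Of 14 B and T lineage markers 0 rose and 5 fell, with sums of 81701 and 79884 in WT and 63327 and 45535 in KO. Of 14 monocyte and dendritic cell markers 0 rose and 3 fell (median -0.04), with sums of 57096 and 59498 in WT and 51806 and 55945 in KO. Of all tested loci 20.9% were called, 8.97% lower. Their part in the Ctss and class II values was not tested.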

How the data were processed

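RNA sequencing was analysed from 2 WT and 2 KO libraries. Reads were aligned with STAR 2.3.1t to mm9, per the submitters' processing notes; what counted, annotated and scaled the reads, and whether strand was used, is not stated there. Signal values were deposited for each locus, called a normalised read count here: reads multiplied by 1 factor per library, as 100% of values were whole multiples of the smallest (within 0.001 of a read). The recovered depths were 46597871 and 49764454 reads in WT and 83586916 and 76688583 in KO, and a count of 0 allows up to 3 reads (counting error only). Of 22849 rows, 4893 that join neighbouring loci were left out.

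Loci reaching 10 in 2 or more libraries were tested with limma 3.58.1 (R 4.3.3) and a mean-variance trend on log2(value + 1), which understates changes of low loci. P-values were two-sided and adjusted by the Benjamini-Hochberg method over 13764 loci. The fit was tested on simulated data. Alternatives were other pseudocounts, no filter, CPM and upper-quartile scaling, and, on the recovered reads, edgeR 4.0.16, DESeq2 1.42.0 and limma-voom. The edgeR test called 2839 loci, against 2875 with limma. The members and lists were chosen with earlier results of these data known. The text names all members, from each list up to 4 called loci with the largest change, and the 3 loci most like Ctsh and Ctsk. Older names of 7 listed genes were matched through RefSeq's gene table.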

Additional observations from a re-analysis of the deposited data

How the results depend on the processing

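Leaving out 1 library in turn gave 1 to 6 called members, 1 higher in each of these fits and 0 to 5 lower. Over all loci such fits called 869 to 3233, with an Asxl1 log2 fold change of -6.15 to -6.03, and over the pathway lists together 21 to 65. By list they called 1 to 3 other peptidases, 6 to 7 stefin A loci, 0 to 1 other cystatins, 5 to 8 serpins, 1 to 6 cathepsin C clients, 0 to 4 class II genes, 3 to 16 hydrolases, 1 to 8 membrane and pump genes, 2 to 7 sorting genes and 1 to 6 control genes. Without a WT library, the KO pair alone gives the spread. DESeq2 called 2 members higher, Ctsl being the second. Stefin A calls numbered 2 with limma-voom. Cathepsin C clients numbered 4 with DESeq2, CPM and upper-quartile scaling, and class II genes 0 with no filter, limma-voom and edgeR with TMM or RLE. Ctsb was -0.016 with upper-quartile and -0.028 with CPM scaling. Cst3 was -0.049 and -0.061 there, and -0.034 to 0.043 with 1 library left out (-0.024 without WT replicate 1, -0.034 without KO replicate 2), never past the threshold. The cause was not tested. These 2 scalings lower the median of all loci by 0.053 and 0.065. No label says that the replicate number pairs the libraries. Same-numbered ones deviated together (r = 0.246 across 13764 loci). These loci include Xist and the Y-linked ones, and their part in r was not tested. With a replicate block 2 members were higher, Ctsl among them (adjusted p = 0.0215), and 4 cathepsin C clients and 3 class II genes were called, beside 25% of all loci; Hormad1 passed as well (adjusted p = 0.0227). Of 420 results for 30 named list genes, 367 kept direction and call, 53 lost the call and 0 reversed.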

Other observations

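Other neighbours of members also differed. Rab38, a trafficking GTPase gene 119 kb from Ctsc and the only other tested locus within 250 kb of it, had 907 and 883 in WT against 631 and 665 in KO (log2 -0.47 ± 0.10, adjusted p = 0.0256, limma). Pdxk, which encodes pyridoxal kinase and lies 9.12 kb from Cstb, had 3073 and 2832 in WT against 1781 and 2170 in KO (log2 -0.59 ± 0.11, adjusted p = 0.0174, limma), while Rrp1, 12.6 kb from Cstb, did not pass (log2 -0.06 ± 0.05). Without WT replicate 1 and without WT replicate 2 the adjusted p was 0.163 and 0.126 for Rab38, and 0.0942 and 0.0521 for Pdxk. These loci, and their alternative fits, were chosen after their values were seen. Among the left-out rows that join a member with its neighbour, Ctsk and Ctss shared 2 reads in WT and 0 in KO, and Ctsd with 6330512M04Rik had 1 and 5.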
